A study of Mus musculus with 23 samples.

Results

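The 9 genes followed here had among the deepest late losses of signal in mouse striatum lacking Ezh1 and Ezh2: Gpx6, Ido1, Actn2, Nexn, Phex, Coch, Slc35d3, Gkn3 and Dmkn. They were taken by gene symbol, as all of their 11 probe sets, out of 38143 probe sets for 20694 genes, and were chosen by their log2 difference between mutant and control at 6 months, which was among the largest falls of all genes. That difference is given below as a description, without a test. The 23 microarrays, each of striatal tissue, held 11 WT and 12 mutant samples. The controls were WT, 3 arrays at 6 weeks, 4 at 3 months and 4 at 6 months, and were littermates matched for age and sex by the design text. The mutants, spelled Ezh1; Ezh2 Camk Cre in the labels and called dKO here, had 3 arrays at 6 weeks, 3 at 3 months and 6 at 6 months. The labels do not say which Camk promoter drives the Cre, which alleles it deletes or which further alleles the controls carry. Cre lines driven by Camk2a act in forebrain neurons and leave glia and vessels largely untouched, so dKO tissue also holds cells that the deletion may not reach.

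Polycomb repressive complex 2 has Ezh1 or Ezh2 as its enzyme; it methylates histone H3 on lysine 27 and keeps developmental genes silent in neurons. Most striatal neurons are medium spiny neurons, the projection neurons that receive dopamine and glutamate, and loss of their characteristic transcripts is a common sign of striatal disease. The members have unlike roles. Gpx6 is a glutathione peroxidase and Ido1 the enzyme that opens the kynurenine route of tryptophan breakdown. Actn2 and Nexn bind actin filaments, in muscle at the Z-disc and in neurons, for alpha-actinin 2, also at the postsynaptic density, where it binds NMDA receptors. Phex is a membrane endopeptidase whose loss causes X-linked hypophosphatemia, and Slc35d3 belongs to the nucleotide sugar transporter family and in mouse aids export of the dopamine D1 receptor to the cell surface. Coch, Gkn3 and Dmkn encode secreted proteins known from the inner ear, the stomach and the epidermis, and Gkn3 is also known from arterial endothelium of mouse brain.

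The start regions of the members differed widely in CpG content, the base step at which Polycomb complexes tend to gather in mammalian genomes, and 3 are shown for this contrast. RefSeq (GRCm38.p6) gave start regions for 7 of the 9 members, each from 250 bases before to 50 bases after a transcript start; Ido1 and Nexn had none in the table. CpG steps and the letters CACGTG are in capitals.
Gpx6: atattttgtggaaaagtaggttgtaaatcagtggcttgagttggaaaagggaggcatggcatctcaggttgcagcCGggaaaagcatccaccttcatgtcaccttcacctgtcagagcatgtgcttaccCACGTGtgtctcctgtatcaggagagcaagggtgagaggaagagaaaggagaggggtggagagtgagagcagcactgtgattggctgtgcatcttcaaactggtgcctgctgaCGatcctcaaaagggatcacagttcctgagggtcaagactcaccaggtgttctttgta
Actn2: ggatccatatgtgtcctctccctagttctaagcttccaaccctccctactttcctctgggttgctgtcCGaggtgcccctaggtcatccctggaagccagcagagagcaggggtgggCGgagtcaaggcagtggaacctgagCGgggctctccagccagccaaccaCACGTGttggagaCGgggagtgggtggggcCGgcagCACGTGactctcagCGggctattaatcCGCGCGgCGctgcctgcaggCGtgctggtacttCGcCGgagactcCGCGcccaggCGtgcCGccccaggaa
Coch: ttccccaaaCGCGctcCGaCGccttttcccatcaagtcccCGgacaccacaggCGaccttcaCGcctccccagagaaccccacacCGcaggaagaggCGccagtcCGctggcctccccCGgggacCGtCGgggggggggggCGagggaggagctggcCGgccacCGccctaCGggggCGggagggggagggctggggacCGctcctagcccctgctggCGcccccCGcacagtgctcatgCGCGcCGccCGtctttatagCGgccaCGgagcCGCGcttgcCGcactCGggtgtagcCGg
The Gpx6 window is chr13:21311953-21312252 on the plus strand. The Actn2 window is chr13:12340683-12340982 on the minus strand, and the Coch window is chr12:51593091-51593390 on the plus strand. The Gpx6 window held 3 CpG steps, that of Actn2 19 and that of Coch 32, against a median of 7 over 32851 windows of this length. Slc35d3 had 27, Phex 4 and Gkn3 5, and the 3 windows of Dmkn 5, 5 and 8. The palindrome CACGTG, an E-box, occurred once in Gpx6 and 2 times in Actn2 and in no window of the other members, and 7.15% of all windows held it. TATAAA, searched on both strands, occurred in Coch alone among the members (13.62% of all windows), and the palindrome TGACGTCA in none (1.79% of all windows). These matches describe the letters only.

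All values are RMA log2 values that the authors centred on each probe set, so 0 is a zero point of that probe set. It need not be the median over these arrays, and for Ezh1 it was not. Differences between arrays are kept, and levels of different genes cannot be compared. Whether the defining striatal markers are present cannot be read from such values. Where a gene had several probe sets, the one with the largest SD over the 23 arrays was followed first. The same pick was made for every gene list and marker list below. It can favour probe sets that change, and the shares of all probe sets were taken without it. Ezh1 read 1.39 to 2.28 in the WT arrays and -0.80 to 0.00 in the dKO arrays, except for the library labelled dKO replicate 3 of 6 weeks, at 1.47, which goes against its label. Ezh2 read 0.75 to 1.09 in WT and -0.11 to 0.91 in dKO at 6 weeks. There dKO replicates 1 and 3 (0.91 and 0.81) lay within the WT range of Ezh2, and replicate 2 below it. At 3 months Ezh2 read 0.10 to 0.46 in WT against -0.24 to 0.00 in dKO. Its ranges overlapped again at 6 months (-0.17 to 0.13 against -0.70 to -0.10). Xist was low in all 3 WT arrays of 6 weeks and high in 1 of the 3 dKO arrays, replicate 1, so these groups were not alike in sex. The cortical marker median read -1.43 in dKO replicate 1 of 6 weeks, 1.07 in replicate 2 and 0.59 in replicate 3, against -0.75 to 0.24 in WT. The thalamic or pallidal marker median was higher in every dKO array of 6 weeks (0.04, -0.35 and 0.78) than in the WT arrays (-0.81 to -0.59). Of these 10 markers limma called 1 higher at that age, Slc17a6, a vesicular glutamate transporter gene (2.11, adjusted p = 0.0341), and 0 lower, with a median log2 fold change of 0.94. Of all probe sets 0.11% were called higher and 0.0918% lower at 6 weeks. The part of these differences in the 6-week results was not tested apart from the adjustments named there. Less RNA of a gene per cell and fewer cells of a type cannot be told apart in these bulk samples. Nothing beyond the labels says how animals were pooled or RNA preparations were shared, so p-values measure the spread between these arrays.

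**Figure D1:**
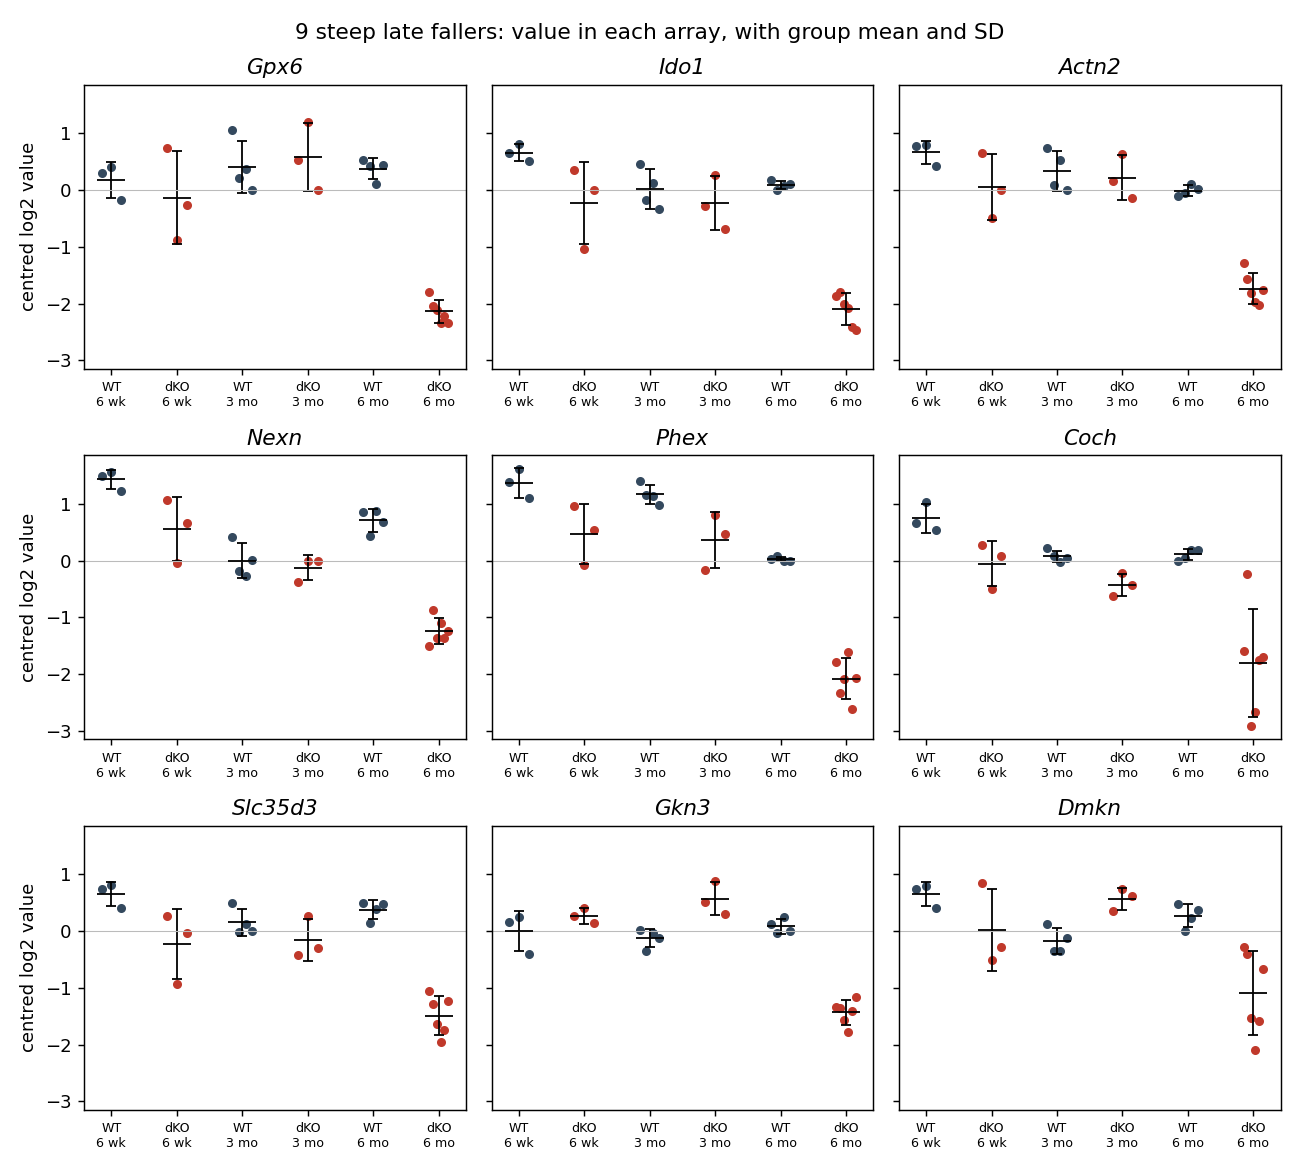
Centred log2 value of each member in every array (points; WT dark, dKO red), with group mean and SD (black), by genotype and age. The 6 dKO arrays of 6 months lie below the 4 WT arrays of that age in all 9 genes. At 6 weeks all dKO arrays lie below all WT arrays in 5 genes, as in 10.1% of all probe sets. At 3 months they lie below in 2 and above in 2, as in 4.77% and 5.16% of all probe sets. In the other genes the genotypes overlap at these ages.

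At 6 months every member was lower in dKO, with log2 fold changes from -2.51 to -1.37 and a median of -1.92, where the median over all probe sets was -0.00057. The 6 dKO arrays lay below the 4 WT arrays for all 9 genes, a state that 5.19% of all probe sets shared, and 8.07% of all probe sets passed the test as lower at this age. In the other direction, 4.8% of all probe sets had all dKO arrays above all WT arrays. These shares stand beside a choice made on this contrast and say nothing about the members. In 7 of the 9 genes each of the 6 dKO arrays was also below all 17 other arrays of the study. The share of all probe sets in that state was not counted, and the choice used these same dKO values. This count therefore says nothing about the members either. In rank by fall over 16718 genes, leaving out predicted and clone-named ones, Gpx6 was 3rd, Ido1 4th, Phex 5th, Nexn 7th, Coch 8th, Slc35d3 11th, Actn2 16th, Gkn3 21st and Dmkn 36th. The list is therefore not a complete top list, and 27 other genes had falls at least as steep as that of Dmkn. The steepest of these were Pmch (-3.32 ± 0.62, standard error), Krt12 (-2.70 ± 0.84) and Ezh1 itself (-2.10 ± 0.27). Around the least member, Dmkn at -1.37, lay Ighm (-1.38), Msi2 (-1.38) and Rpe65 (-1.37) on one side and Acvr1c (-1.37), Rgs4 (-1.37) and Akap9 (-1.35) on the other.

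Before 6 months no member differed between the genotypes by the test. A gene is called here at a Benjamini-Hochberg adjusted p under 0.05 from limma over all 38143 probe sets. At 6 weeks 0 of 9 members were called lower and 0 higher, where 0.0918% and 0.11% of all probe sets were called. At an unadjusted p under 0.05, 5 of 9 were lower (Ido1, Actn2, Nexn, Phex and Slc35d3) and 0 higher, where 4.52% of all probe sets were lower and 4.14% higher at that mark. In 5 of 9 (Ido1, Nexn, Phex, Coch and Slc35d3) all dKO arrays were below all WT arrays, as in 10.1% of all probe sets, and in 0 of 9 all were above, as in 7.43%. At 3 months 0 of 9 were called either way, where 0.0236% of all probe sets were called lower and 0.239% higher. At an unadjusted p under 0.05, Phex was lower and Gkn3 and Dmkn were higher, where the shares of all probe sets were 2.73% and 3.75%. The median log2 fold change of the members was -0.80 at 6 weeks and -0.13 at 3 months. The effect at 3 months minus that at 6 weeks was positive in 9 of 9 members, with a median of 0.49, and was called in 0 (2 at an unadjusted p under 0.05, Nexn and Dmkn; 0.00524% of all probe sets were called in each direction, and 3.03% were higher and 2.57% lower at the unadjusted mark). Between 6 weeks and 3 months 1 of 9 members was called lower in WT and 0 higher, where 4.37% and 3.96% of all probe sets were called; at the unadjusted mark 4 were lower (11.2%) and 0 higher (10.5%). In dKO 0 of 9 were called either way (1.23% lower and 1.07% higher of all probe sets), with 1 lower and 1 higher at the unadjusted mark (6.96% and 7.27%). These fold changes share no arrays with the choice of the genes. Their standard errors and p-values do, since the spread was pooled over all 23 arrays, those of 6 months among them. The genes were also picked with earlier results of all ages known.

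**Figure D2:**
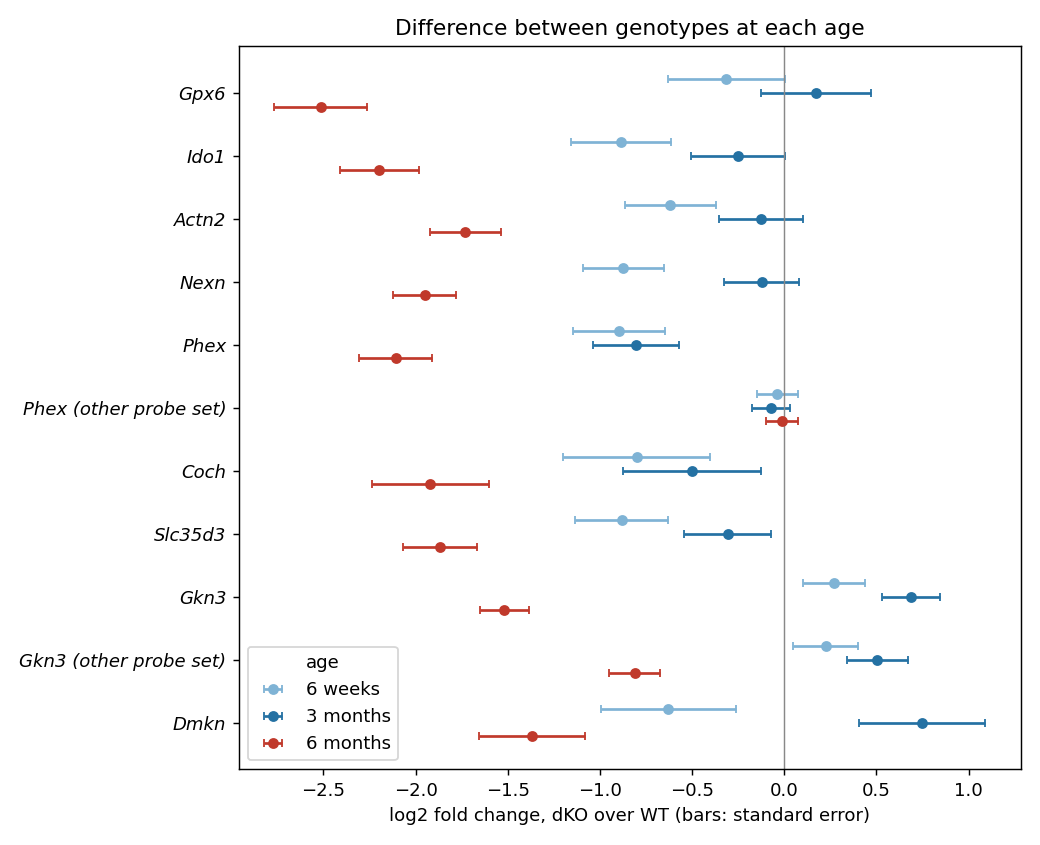
Log2 fold change of dKO over WT (horizontal axis) with its standard error, at each of the 3 ages, for the 11 probe sets of the members. At 6 months the followed probe sets lie between -2.51 and -1.37, at 3 months between -0.80 and 0.75, and the second Phex probe set stays near 0 at each age.

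Gpx6, which reduces hydroperoxides with glutathione, had the deepest fall of the members and their largest drop in dKO between 3 and 6 months. At 6 weeks it read 0.30, 0.41 and -0.18 in WT and 0.74, -0.87 and -0.27 in dKO. At 3 months it read 1.05, 0.22, 0.37 and 0.00 in WT and 0.53, 1.21 and 0.00 in dKO. At both ages the genotypes overlapped. The log2 fold change was -0.31 ± 0.32 at 6 weeks (limma adjusted p = 0.910) and 0.17 ± 0.30 at 3 months (adjusted p = 0.999), with 95% intervals from -0.97 to 0.35 and from -0.45 to 0.79. At 6 months WT read 0.53, 0.42, 0.11 and 0.44, and the 6 dKO arrays ran from -2.34 through a median of -2.16 to -1.79. Every dKO array of that age was below every other array, and the difference was -2.51 ± 0.25, to 0.175 of the WT value. Its means in the other 5 groups lay between -0.13 and 0.58 with overlapping neighbours, and only the step down to dKO at 6 months, at -2.14 ± 0.21 (SD, n = 6), had no overlap. In WT it did not pass the test between 6 weeks and 3 months (0.23 ± 0.30, adjusted p = 0.741).

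Ido1, the kynurenine enzyme, had the next deepest difference among the members at 6 months, and its genotypes did not overlap at 6 weeks. It read 0.65, 0.81 and 0.51 in WT of 6 weeks and 0.35, -1.04 and 0.00 in dKO. All 3 dKO arrays were below all 3 WT arrays, with 1 of them near the controls and 1 far below. The difference, -0.89 ± 0.27, missed the threshold (limma adjusted p = 0.240). At 3 months WT read 0.46, -0.18, 0.13 and -0.34 and dKO -0.28, 0.26 and -0.68. These groups overlapped, and the difference was -0.25 ± 0.26 (adjusted p = 0.999). By 6 months WT lay between 0.00 and 0.18 and dKO ran from -2.47 through -2.04 to -1.79, a difference of -2.20 ± 0.22, to 0.218 of WT. In order of mean, WT of 6 weeks stood above all other groups without overlap with the next, the 4 groups in the middle overlapped as neighbours, and dKO of 6 months stood apart below.

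The actin-binding members Actn2 and Nexn had close differences at 6 months, and Nexn was the member called between 6 weeks and 3 months in controls. Actn2 read 0.78, 0.79 and 0.43 in WT of 6 weeks and 0.65, -0.50 and 0.00 in dKO. The genotypes overlapped, and the difference was -0.62 ± 0.24 (limma adjusted p = 0.420). At 3 months WT read 0.75, 0.09, 0.53 and 0.00 and dKO 0.15, 0.64 and -0.15, again overlapping (-0.13 ± 0.23, adjusted p = 0.999). In the oldest animals WT lay between -0.11 and 0.11 and dKO ran from -2.03 through -1.79 to -1.29, a difference of -1.73 ± 0.19, to 0.301 of WT.

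Nexn read 1.49, 1.56 and 1.23 in WT of 6 weeks and 1.06, -0.05 and 0.66 in dKO, with no overlap. That difference was -0.87 ± 0.22 (limma adjusted p = 0.114). At 3 months WT read 0.42, -0.18, -0.27 and 0.01 and dKO -0.38, 0.00 and 0.00, which overlapped (-0.12 ± 0.20, adjusted p = 0.999). WT therefore moved between these ages: Nexn fell in controls by 1.43 on the log2 scale (-1.43 ± 0.20, adjusted p = 0.000182), a change that no other member passed. In dKO the same step was -0.68 ± 0.22 (adjusted p = 0.108), and the difference between the 2 steps was 0.75 ± 0.30 (adjusted p = 0.800). At 6 months WT read 0.86, 0.43, 0.87 and 0.67, between its means of the earlier ages, and dKO ran from -1.51 through -1.30 to -0.88. The difference there was -1.95 ± 0.17, to 0.259 of WT.

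Phex, the endopeptidase, was, with Coch, a member whose genotypes did not overlap at any age. It read 1.39, 1.61 and 1.10 in WT of 6 weeks against 0.97, -0.09 and 0.54 in dKO. At 3 months it read 1.39, 1.16, 1.14 and 0.98 in WT against -0.17, 0.80 and 0.46 in dKO. At both ages all dKO arrays were below all WT arrays, as in 10.1% of all probe sets at 6 weeks and 4.77% at 3 months. The differences were -0.89 ± 0.25 and -0.80 ± 0.23, with limma adjusted p of 0.172 and 0.258. Phex lies on chromosome X, and with Xist as a covariate they were -0.95 and -0.82 (adjusted p = 0.107 and 0.227). By 6 months WT itself was lower than at 3 months, between -0.01 and 0.07, a difference of -1.14 ± 0.22, and dKO ran from -2.61 through -2.08 to -1.61. The genotypes then differed by -2.11 ± 0.20, to 0.232 of WT. The second Phex probe set read between -0.31 and 0.22 on all arrays, with an SD of 0.136 over the study, and differed by -0.01 ± 0.09 at 6 months. With centred values it cannot be said whether that probe set measures the gene at all.

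Slc35d3, the transporter family member, was lower in dKO without overlap at 6 weeks and at 6 months but not at 3 months. It read 0.73, 0.80 and 0.41 in WT of 6 weeks and 0.26, -0.93 and -0.03 in dKO, with no overlap (-0.88 ± 0.25, limma adjusted p = 0.184). At 3 months WT read 0.49, -0.01, 0.13 and 0.00 and dKO -0.42, 0.27 and -0.30. The genotypes overlapped there (-0.31 ± 0.24, adjusted p = 0.974). At the last age WT lay between 0.15 and 0.49 and dKO ran from -1.96 through -1.47 to -1.06, a difference of -1.87 ± 0.20, to 0.274 of WT.

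Coch, the cochlin gene, was lower in dKO without overlap at all ages, and had the widest spread among the mutants of 6 months. It read 0.67, 1.03 and 0.54 in WT of 6 weeks and 0.27, -0.50 and 0.07 in dKO (-0.80 ± 0.40, limma adjusted p = 0.608). At 3 months it read 0.21, 0.07, -0.03 and 0.04 in WT and -0.62, -0.22 and -0.44 in dKO (-0.50 ± 0.37, adjusted p = 0.965). Neither difference passed the test. At 6 months WT lay between 0.00 and 0.19, and the dKO arrays read -1.59, -0.23, -2.92, -2.67, -1.76 and -1.70 in order of replicate number. Replicate 2 was the highest by far, and in that array the choroid plexus marker median was 3.80, against -0.20 to 0.33 in the other 5 and 3.40 in WT replicate 1. The part of choroid plexus tissue in this value was not tested. The difference was -1.92 ± 0.32, to 0.265 of WT, and -2.24 without that array.

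For the secreted proteins Gkn3 and Dmkn every dKO array of 3 months was above every WT array, though neither difference passed the test. Gkn3 read 0.15, 0.24 and -0.40 in WT of 6 weeks and 0.26, 0.41 and 0.14 in dKO, with overlap (0.27 ± 0.17, limma adjusted p = 0.739). At 3 months it read 0.02, -0.35, -0.04 and -0.13 in WT and 0.52, 0.88 and 0.30 in dKO, a separation that 5.16% of all probe sets showed. That difference of 0.69 ± 0.16 missed the threshold (adjusted p = 0.0723). Then, at 6 months, WT lay between -0.04 and 0.25 and dKO ran from -1.79 through -1.39 to -1.15, a difference of -1.52 ± 0.13, to 0.349 of WT. The second Gkn3 probe set showed the same order with smaller steps: 0.22 ± 0.18, 0.51 ± 0.16 and -0.81 ± 0.14 at the 3 ages, with overlap at 3 months (adjusted p = 0.366).

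Dmkn read 0.74, 0.80 and 0.41 in WT of 6 weeks and 0.84, -0.51 and -0.28 in dKO, so that the dKO arrays fell on either side of the controls (-0.63 ± 0.37, limma adjusted p = 0.706). At 3 months it read 0.13, -0.36, -0.36 and -0.13 in WT and 0.35, 0.74 and 0.61 in dKO. All dKO arrays were higher there, and the difference was 0.75 ± 0.34 (adjusted p = 0.725). At 6 months WT lay between 0.00 and 0.48, and the dKO arrays read -0.29, -0.40, -1.53, -2.10, -1.58 and -0.68 in order of replicate number. Only 4 of these 6 were below all other arrays of the study, and the difference was -1.37 ± 0.29, to 0.388 of WT. Its effect at 3 months exceeded that at 6 weeks by 1.38 ± 0.50, which did not pass over all probe sets (adjusted p = 0.758).

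Single arrays moved many members together at the earlier ages. Among the 3 dKO arrays of 6 weeks, replicate 1 held the highest value of 8 members and replicate 2 the lowest of 8. Replicate 2 was the array with the highest cortical marker median and replicate 1 that with the lowest. At 3 months dKO replicate 2 was highest for all 9 members, and its cortical median was -0.22 against 0.79 and 0.72 in the other 2. WT arrays moved together as well. Of the WT arrays of 6 weeks, replicate 2 was the highest and replicate 3 the lowest for every member. WT replicate 1 of 3 months was the highest of its group for every member. At 6 months no dKO array was the lowest for more than 3 members or the highest for more than 4. With the cortical marker median as a covariate Nexn passed at 6 weeks (-0.79, limma adjusted p = 0.0392) and no other member did. Without dKO replicate 1 of 6 weeks 4 members passed as lower at that age, Ido1, Nexn, Phex and Slc35d3. Without replicate 3, whose Ezh1 goes against its label, none did. In both these arrays Ezh2 lay within the WT range of 6 weeks. Over all probe sets the count called lower at 6 weeks also moved, from 7 to 239 with single arrays left out, against 35 with all arrays. The median of the 9 members per array ran from -0.50 to 0.65 in dKO of 6 weeks, from -0.17 to 0.64 in dKO of 3 months and from -1.96 to -1.36 in dKO of 6 months. In WT it ran from 0.43 to 0.80, from -0.01 to 0.46 and from 0.05 to 0.19 at these ages.

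**Figure D3:**
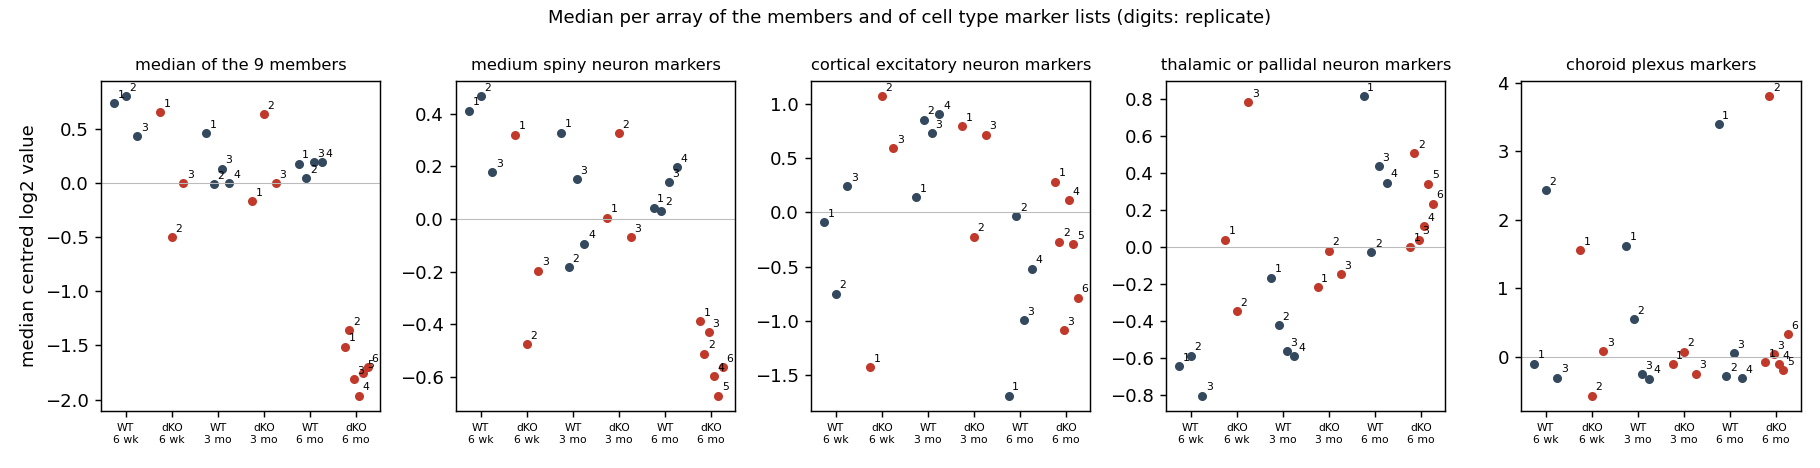
Median centred log2 value per array (points, with the replicate number; WT dark, dKO red) of the 9 members and of 4 marker lists, each with its own vertical scale. At 6 months the member median lies between -1.96 and -1.36 in dKO and between 0.05 and 0.19 in WT. The medium spiny neuron median is also apart, between -0.67 and -0.39 in dKO and between 0.03 and 0.20 in WT. The cortical, thalamic or pallidal and choroid plexus medians overlap between genotypes.

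Markers of medium spiny neurons were lower at 6 months as well. The list holds 38 measured genes and none of the members. Of these 24 were called lower and 0 higher at 6 months, against 8.07% of all probe sets called lower, with a median of -0.77. At 6 weeks limma called 0 of 38, with 26 at an unadjusted p under 0.05 and a median of -0.53, and at 3 months 0 of 38, with 2 at that mark and a median of 0.0041. At that mark 4.52% of all probe sets were lower and 4.14% higher at 6 weeks, and 2.73% and 3.75% at 3 months. Pde7b, a cAMP phosphodiesterase, fell most at 6 months (-1.90 ± 0.20, adjusted p = 1.04e-06). Drd2, a dopamine receptor gene, fell with it (-1.84 ± 0.21, adjusted p = 4.85e-06), as did the adenosine receptor gene Adora2a (-1.65 ± 0.20) and Syndig1l (-1.42 ± 0.21). Per array, the list median lay between -0.67 and -0.39 in the mutants of 6 months, below the 0.03 to 0.20 of their controls. The lists were chosen with earlier results of these data known.

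The pathway and family relatives of the members were counted by list at 6 months. Each gene had its own limma test, and no list was tested as a whole. In the kynurenine list, which without Ido1 had 10 measured genes, 2 rose at 6 months and 0 fell. Of all probe sets 7.62% were called higher and 8.07% lower at that age. Those 2 were Afmid, the formamidase of the second step (0.67 ± 0.15, limma adjusted p = 0.00444), and Qprt, which turns quinolinate toward NAD (0.47 ± 0.12, adjusted p = 0.0114). Ido2, the paralog of Ido1, read 0.09 ± 0.11 (adjusted p = 0.664). Of 23 glutathione and peroxidase genes 4 rose and 1 fell, with a median of 0.04. The faller was Gpx1, the main cytosolic glutathione peroxidase (-0.48 ± 0.08, adjusted p = 3.63e-04), and the risers were Gsr, Prdx4, Prdx2 and Gpx4, by 0.20 to 0.33.

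Of 29 genes for actin crosslinking and the spine cytoskeleton, 5 fell and 1 rose at 6 months, with a median of -0.05. For this and the next lists, 8.07% of all probe sets were called lower and 7.62% higher at that age. Synpo2, an actin-bundling protein of muscle, read -1.84 ± 0.36 (limma adjusted p = 0.00141), Filip1 -0.73 ± 0.16 and Vcl, vinculin, -0.48 ± 0.11. The paralogs of Actn2 did not move alike. Actn1 fell (-0.68 ± 0.09, adjusted p = 2.57e-05), Actn3 was the 1 that rose (0.34 ± 0.11, adjusted p = 0.0425), and Actn4 was not called (-0.13 ± 0.07, adjusted p = 0.289). Of 14 phosphate and mineralisation genes 2 fell and 1 rose, with a median of 0.04. Enpp1, which makes pyrophosphate, fell (-0.92 ± 0.21, adjusted p = 0.00450), as did the phosphate transporter Slc20a1 (-0.57 ± 0.11), and Ibsp rose (0.43 ± 0.12). Of 24 other members of the Slc35 family 5 rose and 4 fell, all by under 0.65, with a median of 0.06. Of 11 family and locus relatives 2 fell and 0 rose (median -0.01). These were the neutral endopeptidase genes related to Phex, Ecel1 (-0.75 ± 0.21) and Mme (-0.58 ± 0.17). Gkn1 and Gkn2 read 0.10 and -0.05, and Sbsn and Krtdap, secreted products of the Dmkn locus, read 0.24 and -0.01, none of them called. At 6 weeks and 3 months limma called 0 of the genes of these lists but for Spp1, osteopontin, of the phosphate list, which was higher at both ages (1.73, adjusted p = 0.0268, and 1.65, adjusted p = 0.0137). Of all probe sets 0.11% were called higher at 6 weeks and 0.239% at 3 months.

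**Figure D4:**
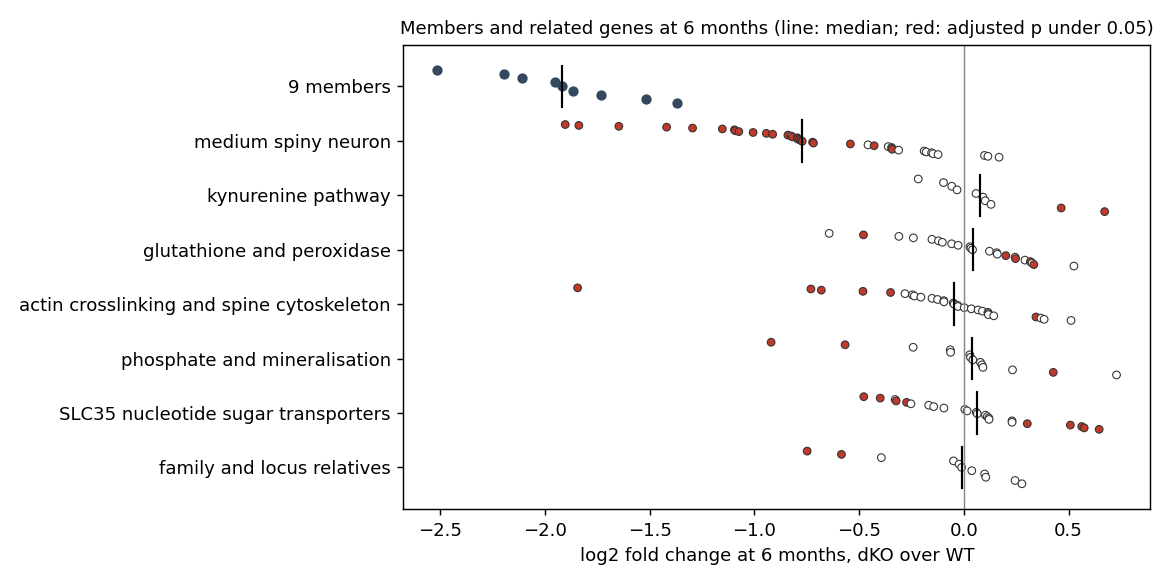
Log2 fold change of dKO over WT at 6 months for each gene (points) of the members and of 7 related gene lists, with list medians (lines) and called genes in red; members are untested and dark. The members lie between -2.51 and -1.37, and the medians of the lists other than medium spiny neurons lie between -0.05 and 0.08.

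Markers of other cells that also use some of these genes were set beside them. The counts stand against 8.07% of all probe sets called lower and 7.62% called higher at 6 months. Shares at the unadjusted mark were not counted for that age. Of 12 arterial endothelial and mural markers 1 fell at 6 months (Kcnj8) and 0 rose, with a median of -0.08, where Gkn3 read -1.52. Of 9 general endothelial markers limma called 0, with 4 at an unadjusted p under 0.05 and a median of -0.16. Of 9 keratinocyte markers 2 rose and 1 fell, and of 12 muscle markers 2 rose and 1 fell. Choroid plexus markers had 0 of 10 called at 6 months and 0 at an unadjusted p under 0.05. Cortical markers had 1 of 10 higher and 1 lower, thalamic or pallidal markers 3 higher and 1 lower of 10, meningeal fibroblast markers 3 higher of 10, and striatal interneuron markers 2 lower of 12. Astrocyte markers had 2 higher and 1 lower of 11, oligodendrocyte markers 4 lower of 10 and microglia markers 2 lower of 10. The part of these cell types in the members' values was not tested.

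The genes with the most similar course were found over the 6 group means, each gene centred on its own mean, by the root mean square difference in log2 units, a description that includes the contrast used to choose the members. Nearest to Gpx6 were Pde7b (0.246), Gprin3 (0.315) and Tsga10 (0.336). Nearest to Ido1 were another member, Coch (0.150), then Clspn (0.154) and Actn2 (0.197), and nearest to Actn2 were Acvrl1 (0.140), Tsga10 (0.151) and Fancb (0.180). The gene nearest to Nexn was Nuf2 (0.248), to Phex Rgs4 (0.300), to Slc35d3 Acvr1c (0.182), to Gkn3 Nrep (0.243) and to Dmkn Rgs9 (0.215). Rgs9, a regulator of G protein signalling abundant in medium spiny neurons, differed between genotypes by -0.73 at 6 weeks, 0.13 at 3 months and -1.10 at 6 months in this probe set. Its probe set in the list above disagreed at the last age, at -0.46 ± 0.22 (limma adjusted p = 0.177), with -0.86 and -0.28 before.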

How the data were processed

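Striatal RNA in 23 samples was measured on Affymetrix arrays, per the labels. The deposited log2 values were made with RMA, as the submitters' processing notes name it; software and build are not stated there. Centring shows in the values: 87.95% of 45101 probe sets hold an exact 0. The filter on dim probe sets could therefore not be made. Of the authors' normalized log2 columns 21 equalled the series table and 2 of the same name were not used. Gene symbols came from that table, with 1160 updated through RefSeq (GRCm38.p6). The 38143 probe sets with 1 symbol were fitted with limma 3.58.1 in R 4.3.3, 1 mean per group over all 23 arrays (17 residual degrees of freedom), Benjamini-Hochberg adjusted over all. Errors after ± are standard errors unless named SD. No 2 arrays were duplicates (smallest median difference 0.104). On simulated data with 38143 probe sets, the fit recovered 37.3%, 91% and 98.5% of true log2 changes of 0.5, 1 and 2 at 6 weeks. The simulated noise was normal, independent between probe sets and arrays, and equal in spread over the groups. Real arrays of 6 weeks, WT and dKO, moved many members together, so these shares need not hold for the real test at that age. Members and gene lists were chosen with earlier results of these data known. Named genes are all member probe sets, the nearest genes by course (3 for Gpx6, Ido1 and Actn2, 1 for others), the edge of the list, and up to 4 called genes per list, with a few relatives added after their values were seen. The number of arrays limits the precision. Alternatives covered normalization, choice of probe set, arrays, spread, covariates and the replicate number. Figures used matplotlib 3.10.9.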

Additional observations from a re-analysis of the deposited data

Results flagged for a closer look

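Gkn3 and Dmkn lay on opposite sides of the controls at 3 and 6 months. All 3 dKO arrays of 3 months were above all 4 WT arrays, as in 5.16% of all probe sets, but neither gene passed the limma test there (adjusted p = 0.0723 and 0.725), and the second Gkn3 probe set overlapped. All 6 dKO arrays of 6 months were below all 4 WT arrays, as in 5.19% of all probe sets, on the contrast that chose the genes. The effect at 6 months minus that at 3 months was -2.21 for Gkn3 and -2.11 for Dmkn on the log2 scale. This difference was not tested. No array of any member stood apart from its group by Dixon's criterion in the 27 pairings of a member with a group of 4 or more arrays. The groups of 3 arrays, both of 6 weeks and dKO of 3 months, were not examined.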

How the results depend on the processing

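The differences at 6 months kept their sign for all 9 members in all settings tried. Their median, -1.92, was -1.61 with quantile normalization, and -2.02 to -1.77 when single arrays were left out; Phex read -1.06 with the mean of its 2 probe sets. The count of members lower at 6 weeks, 0, became 7 with array weights, where the library labelled dKO replicate 3 weighs 5.32 and all others 0.356 to 1.87, 1 with the cortical or the choroid plexus median as covariate, and 0 to 4 when single arrays were left out. The count higher at 3 months, 0, became 1 (Gkn3) with quantile normalization, array weights or the choroid plexus covariate, and 0 to 1 when single arrays were left out. In WT from 6 weeks to 3 months, 1 member lower became 5 with only the groups compared or array weights, and 3 with the 13 arrays of these ages, a setting chosen after seeing the data. In dKO over the same ages, array weights gave 1 lower and 3 higher, leaving out single arrays gave 0 to 1 lower, and array weights called 1 member for the change of effect. Uncalled values near 0 changed sign: for dKO from 6 weeks to 3 months, Phex to 0.0048 with quantile normalization and 0.011 with the mean of probe sets, and Ido1 to 0.10 and 0.055 with the cortical and choroid covariates; for the change of effect, Phex to -0.023 with the cortical covariate. Leaving out single arrays also changed the sign of uncalled values: Gpx6 at 6 weeks ran from -0.75 to 0.055 (positive without dKO replicate 2); at 3 months Gpx6 ran from -0.14 to 0.46 (negative without dKO replicate 2), Actn2 from -0.34 to 0.054 and Nexn from -0.21 to 0.019; in WT with age Gkn3 ran from -0.32 to 0.00048; in dKO with age Ido1 ran from -0.41 to 0.29, Actn2 from -0.11 to 0.47, Phex from -0.39 to 0.15 and Slc35d3 from -0.27 to 0.32; the change of effect of Phex ran from -0.19 to 0.35. Gkn3 passed at 3 months without dKO replicate 3, and Nexn in dKO with age without dKO replicate 2 of 6 weeks. Counts over all probe sets moved by more than 1.5 times: at 6 weeks 35 lower and 42 higher became 4 to 2627 and 8 to 2262 across settings, at 3 months 9 and 91 became 3 to 90 and 44 to 277, in WT with age 1667 and 1510 became 662 to 4556 and 589 to 4296, in dKO with age 468 and 410 became 65 to 2602 and 62 to 2895, and for the change of effect 2 and 2 became 1 to 531 and 0 to 716. With single arrays left out, the count of all probe sets lower at 6 weeks ran from 7 to 239. A rise in the member counts was not told apart from a rise in calls over all probe sets. The causes were not tested. Same-numbered arrays share only a number, with correlations of their deviations from -0.365 to 0.153; the replicate block called 1 member lower in WT with age and 0 elsewhere.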
